A study of Drosophila melanogaster with 6 samples.

Results

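The vacuolar-type proton pump (V-ATPase) was examined in the proboscis, a feeding and taste organ, of Drosophila melanogaster males that were homozygous or heterozygous for the poxn70 allele. Its genes were found by symbol: every gene whose name in the platform annotation begins with Vha followed by a digit, A, M or P. This gave 30 genes of the 11982 with a probe set of their own on the array, and where a gene had several such probe sets, the one of highest mean was used (Vha16-1 had 2, and no other gene had more than 1). Each genotype had 3 biological replicates and 1 array per replicate, from flies aged 8 to 18 days, with 164 to 280 proboscises per array. The poxn70 allele is shared by both groups, so the heterozygotes are not wild type, and the samples are whole proboscises in which sense organs, cuticle-forming cells, muscle and other tissue are mixed.

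The V-ATPase is a rotary motor that splits ATP and moves protons across a membrane. Its V1 sector lies in the cytosol and holds the catalytic ring (subunits A and B), the central rotor (D and F), the outer stalks (E and G), subunit C, which bridges the sectors, and the regulatory subunit H. Its V0 sector lies in the membrane and holds the proton-conducting subunit a, the rotating ring (c and c''), subunit d and the small subunit e. The pump acidifies lysosomes and endosomes, and in neurons synaptic vesicles. In the plasma membrane of insect epithelia it drives ion transport, and in moth antennae it is known from the support cells that secrete the fluid around sensory dendrites. Drosophila has several gene copies for many subunits, and some copies are known mainly from single tissues such as the testis.

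All values are log2 GCRMA values, differences are homozygous minus heterozygous, and errors of means are SDs with n = 3. A probe set was counted as above background where the mean of at least 1 genotype reached 3, since GCRMA places probe sets without signal in a narrow band of low values. The level of a probe set depends on its probes, so levels of different genes are not ranked against each other, and their place against the limit is read. Summed linear values of marker lists are also given below. Such a sum mostly follows its probe sets of highest value, and it serves only to compare arrays. The probe set of Poxn itself stayed under the limit on all 6 arrays (2.30 to 2.65), so it gave no check of the genotypes. The marker lists were chosen with earlier results of these data known, so they are no independent check of the genotypes either. Of 8 taste neuron markers 4 were called lower in homozygotes, and of 6 markers of sense organ support cells 5 were. These calls are at a limma adjusted p under 0.05, where 0.314% of all probe sets were called lower. With the replicate number as a block none of these 9 calls was kept, at adjusted p-values from 0.201 to 0.334, and 0 of all probe sets were called in that fit. None was called in the lists for neurons, glia, muscle, fat body, gut, Malpighian tubule, hemocytes and testis. At an unadjusted p under 0.05, 3 of 6 hemocyte markers were higher and 1 of 6 neuron markers was lower in homozygotes. None passed in the other 6 of those lists. Over all probe sets 4.33% were higher and 2.9% lower at that threshold. The 7 testis markers all had means under the limit in both genotypes.

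Signal above background was found for 11 of the 12 subunits represented, and for every gene classed as the widely expressed copy. Of the 30 genes, 20 were above the limit (66.7%, against 50.0% of all probe sets) and 10 were not. The 50.0% is over 18769 probe sets, 4720 of them with no gene and 402 with several. Each of the 30 genes is instead read at its highest probe set, so these shares are of unlike sets. All 12 genes classed as the widely expressed copy were above it, with values between 11.57 and 14.90 over the 6 arrays. Of the 18 other copies 8 were above it (44.4%). The classes come from general knowledge of these genes. They were set with earlier results of these data known, so they are not independent of these arrays. In 4 subunits (D, a, c and e) more than 1 copy was above the limit. The subunit with none was the catalytic subunit A, which was represented by Vha68-3 alone, at 2.20 to 2.22. The copies Vha68-1 and Vha68-2 were not analysed here, so nothing can be said of subunit A in the proboscis.

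**Figure D1:**
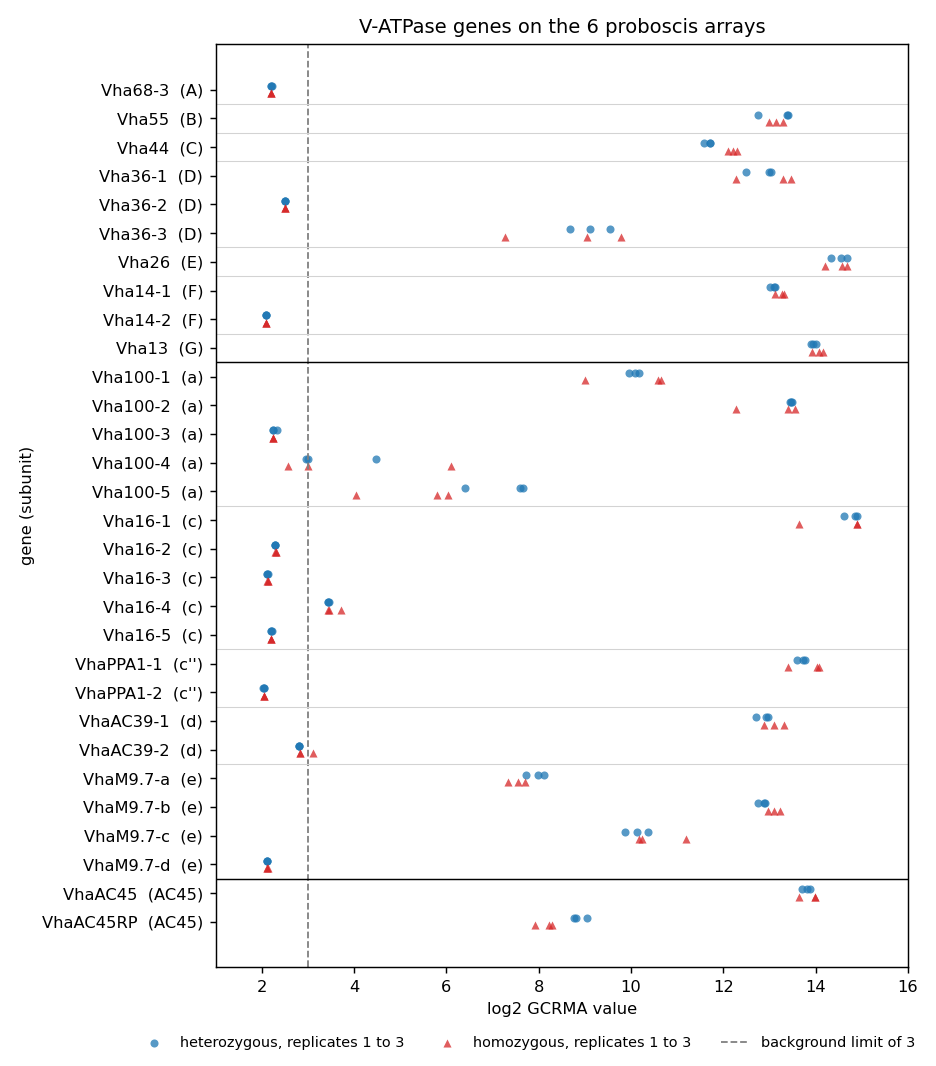
Log2 GCRMA values of the 30 V-ATPase genes (rows, with the subunit in brackets) on the 3 heterozygous (circles) and 3 homozygous (triangles) arrays. Black lines part the V1 genes, V0 genes and accessory genes, and the dashed line is the background limit of 3. The 12 widely expressed copies lie at 11.57 or above, and 10 of the other 18 copies have means under the limit.

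No V-ATPase gene was called between the genotypes. None of the 30 genes passed an adjusted p of 0.05 in either direction (limma, Benjamini-Hochberg over 18769 probe sets), where 0.314% of all probe sets were called lower and 0.0586% higher. Their adjusted p-values ran from 0.194 to 0.995. At an unadjusted p under 0.05, 2 genes were lower (6.67%, against 2.9% of all probe sets) and 1 was higher (3.33%, against 4.33%). The median difference over the 30 genes was 0.003, beside 0.005 over all probe sets. Over the 20 genes above the limit it was 0.09, beside 0.03 over the 9381 probe sets above it. Homozygous means were higher in 12 of these 20 genes and lower in 8. With the replicate number as a block, again none was called (smallest adjusted p 0.334), and at an unadjusted p under 0.05 there were 2 lower (3.23% of all probe sets) and 4 higher (10.8%). Of those 4 higher genes, 2 were under the limit with differences of 0.00.

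**Figure D2:**
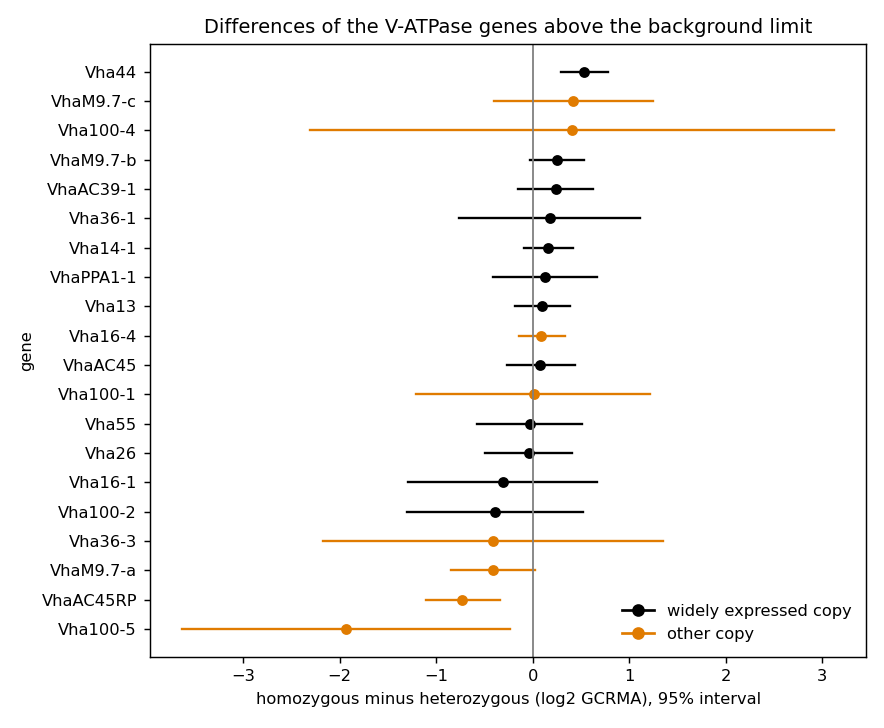
Difference between the genotypes (homozygous minus heterozygous, log2 GCRMA) with its 95% interval from limma for the 20 V-ATPase genes above the background limit, in order of size. The widely expressed copies (black) lie between -0.39 and 0.53 and the other copies (orange) between -1.93 and 0.42, and the intervals of Vha44, VhaAC45RP and Vha100-5 do not reach 0.

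In the catalytic ring, Vha55, the only gene of subunit B, differed between genotypes by less than the spread of its replicates. It read 12.75, 13.38 and 13.39 in heterozygous replicates 1 to 3 and 12.99, 13.29 and 13.15 in homozygous ones. The homozygous values lay inside the heterozygous range, with a difference of -0.03 and a 95% interval of -0.58 to 0.51. That interval leaves room for a change of either sign.

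Subunit C gave the smallest p-value of the family. Vha44, its only gene, read 11.70, 11.57 and 11.72 in heterozygotes and 12.20, 12.10 and 12.29 in homozygotes. Every homozygous array lay above every heterozygous one, and the genotypes did not overlap. The difference was 1.45-fold (log2 0.53, SE 0.10; 95% interval 1.22 to 1.71-fold), and it was not called (limma adjusted p = 0.194). It was much the same in all 3 same-numbered pairs, at 0.50, 0.52 and 0.57. Over 15 other fits it ranged from 0.48 to 0.58 and its adjusted p from 0.0531 to 0.724, so it stayed on the same side of the threshold in each.

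Of the central rotor genes, Vha36-1 and Vha14-1 are the widely expressed copies of subunits D and F. Vha36-1 read 12.49, 13.03 and 12.98 in heterozygotes and 12.27, 13.30 and 13.47 in homozygotes. Its homozygous replicate 1 was the lowest of the 6 arrays and the other 2 homozygous arrays the highest, so the genotypes overlapped (difference 0.18, 95% interval -0.76 to 1.11). Vha14-1 read 13.09, 13.12 and 13 against 13.26, 13.12 and 13.32. Its groups met at 13.12 to 2 decimals and did not overlap beyond that, with a difference of 0.16 (limma adjusted p = 0.611).

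The rotor also held the only other V1 copy above the limit. Vha36-3, a further copy of subunit D, read 8.67, 9.12 and 9.55 in heterozygotes and 7.27, 9.79 and 9.05 in homozygotes. Both its lowest and its highest value were homozygous, and the 95% interval of its difference of -0.41 ran from -2.17 to 1.35. Without homozygous replicate 1 the difference was 0.31. By contrast Vha36-2, the third copy of subunit D, and Vha14-2, the second of subunit F, were under the limit on all 6 arrays, at 2.50 to 2.51 and 2.09 to 2.10.

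The outer stalk genes had overlapping genotypes. Vha26, the only gene of subunit E, averaged 14.52 ± 0.17 in heterozygotes and 14.48 ± 0.25 in homozygotes (SD, n = 3 each). Vha13, the only gene of subunit G, averaged 13.94 ± 0.06 and 14.04 ± 0.13. The differences of -0.04 and 0.10 had 95% intervals of -0.49 to 0.41 and -0.18 to 0.39. VhaSFD, the gene of subunit H, lies outside the naming rule and averaged 13.94 ± 0.03 and 13.91 ± 0.08, a difference of -0.03.

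Subunit a, which carries the half-channels of protons and sets where in the cell the pump sits, had the most varied copies. Vha100-2, the widely expressed copy, read 13.44, 13.49 and 13.46 in heterozygotes and 12.27, 13.40 and 13.54 in homozygotes. The heterozygous arrays lay close together, and homozygous replicate 1 stood well below the other 5. The difference of -0.39 (95% interval -1.30 to 0.52) became 0.01 without that array.

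Vha100-1 is the copy known from neurons, where it acts at synaptic vesicles. It read 9.96, 10.18 and 10.09 in heterozygotes and 9.0, 10.59 and 10.65 in homozygotes. As in Vha36-1, homozygous replicate 1 was lowest of all and homozygous replicates 2 and 3 were above every heterozygous array, so that the means were 10.08 in both genotypes (difference 0.01, 95% interval -1.21 to 1.22). Without homozygous replicate 1 the difference was 0.55 (limma adjusted p = 0.168), and without both arrays numbered 1 it was 0.49 (adjusted p = 0.172). Of the 6 neuronal markers with a matched probe set, brp and para were under the limit, and the other 4 had a median difference of -0.87. The log2 of the summed linear values of the 6 was 11.43 to 11.67 in heterozygotes and 10.35 to 10.81 in homozygotes, without overlap. Appl weighed most in this sum, at 10.99 to 11.36 against 9.74 to 10.35. Appl and elav were lower without overlap, while nSyb, cac, brp and para overlapped between genotypes. The part of neuronal RNA in the values of Vha100-1 was not tested. In such mixed tissue fewer cells of a type and less RNA per cell cannot be told apart.

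Vha100-5, another copy of subunit a, showed the largest difference of the 30 genes. It read 7.65, 7.60 and 6.41 in heterozygotes and 6.03, 5.80 and 4.05 in homozygotes. All 3 homozygous values were below all 3 heterozygous ones, but replicate 3 was the lowest of each genotype and the gap between groups was narrower than the spread within them. The difference was 3.80-fold (log2 -1.93, SE 0.67; 95% interval 1.17 to 12.3-fold) and was not called (limma adjusted p = 0.611). The same-numbered pairs differed by -1.63, -1.80 and -2.35. With the replicate block the adjusted p was 0.334. The difference ran from -2.33 to -1.31 over 15 other fits, the smallest in size without homozygous replicate 3, and the adjusted p from 0.0751 to 0.852. Its unadjusted p was under 0.05 in 12 of these fits. The markers of taste neurons and of sense organ support cells moved the same way, with median differences of -3.58 over 8 genes and -3.68 over 6. The log2 of their summed values was 11.25 to 11.90 against 7.13 to 8.29, and 16.54 to 17.04 against 13.64 to 13.92, and their part in the difference of Vha100-5 was not tested.

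The remaining copies of subunit a gave little signal on most arrays. Vha100-4, known from acid-secreting cells of the midgut, lies directly beside Vha100-2 in the gene order of arm 3R. It read 2.95, 2.99 and 4.48 in heterozygotes and 2.99, 6.10 and 2.56 in homozygotes, above the limit on 1 array of each genotype. The gut protease thetaTry was also highest in homozygous replicate 2 (9.46) and lowest in homozygous replicate 3 (2.57). The related betaTry was highest in heterozygous replicate 3 (13.25) and lowest in homozygous replicate 3 (8.76). Try29F, the third gut marker, was highest in heterozygous replicate 1 (4.83) and lowest in homozygous replicate 1 (2.52). The log2 of the summed values of the 3 gut markers ran from 9.96 to 13.26 in heterozygotes and from 8.81 to 12.25 in homozygotes. Most of that sum was betaTry, which alone ran from 9.92 to 13.25 and from 8.76 to 12.20. Whether gut RNA took part in the values of Vha100-4 was not tested. Vha100-3 was under the limit on all 6 arrays, at 2.24 to 2.32.

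**Figure D3:**
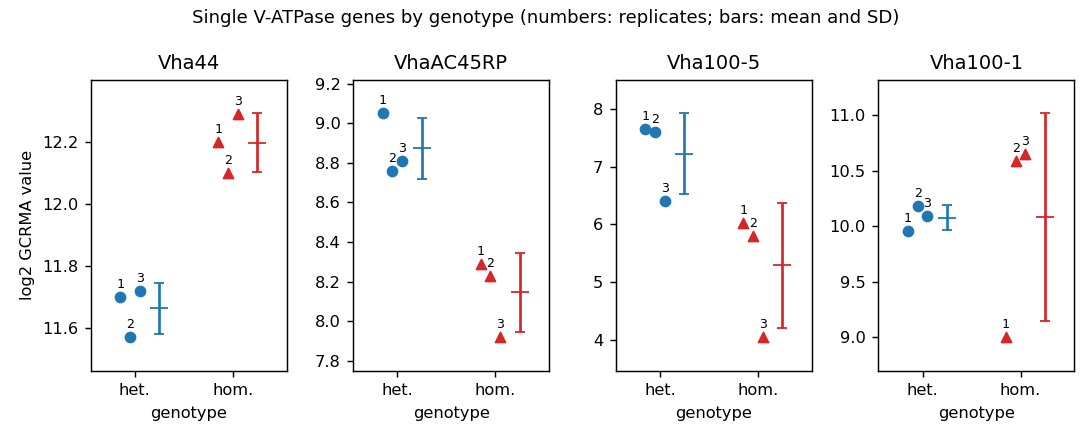
Log2 GCRMA values of Vha44, VhaAC45RP, Vha100-5 and Vha100-1 by genotype (het., heterozygous; hom., homozygous), with replicate numbers at the points and the mean and SD over 3 arrays at the side; each panel has its own axis, which does not start at 0. The genotypes do not overlap in the first 3 genes, and in Vha100-1 homozygous replicate 1 (9.0) lies below the other 5 arrays.

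In the proton-carrying ring 1 copy of each subunit was read well above background. Vha16-1, the widely expressed copy of subunit c, read 14.62, 14.90 and 14.85 in heterozygotes and 13.64, 14.90 and 14.90 in homozygotes. Homozygous replicate 1 stood apart from the other 5 arrays, and the difference of -0.31 became 0.11 without that array. The second probe set of this gene gave 12.77, 12.76 and 13.05 against 12.03, 12.87 and 12.95, again lowest in homozygous replicate 1, with a difference of -0.24. VhaPPA1-1, the widely expressed copy of subunit c'', read 13.59, 13.73 and 13.77 against 13.39, 14.02 and 14.06. It was once more lowest in homozygous replicate 1 and higher in the other 2 homozygous arrays than in any heterozygous one (difference 0.13, 95% interval -0.41 to 0.67). The difference was 0.34 without homozygous replicate 1 (limma adjusted p = 0.352) and 0.01 without homozygous replicate 3.

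The other ring copies gave little or no signal. Vha16-2, Vha16-3, Vha16-5 and VhaPPA1-2 were under the limit on all 6 arrays. Vha16-4 lay between 3.44 and 3.45 on 5 arrays and at 3.72 in homozygous replicate 3, so it passed the limit of 3 but not one of 4. Vha16-2 and Vha16-3 are direct neighbours on arm 3L. VhaPPA1-2 lies 1 gene from VhaPPA1-1 on arm 3R, and as with Vha100-2 and Vha100-4, only 1 gene of the pair was read well above background.

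Subunits d and e close the V0 sector. VhaAC39-1, the widely expressed copy of subunit d, read 12.70, 12.97 and 12.93 in heterozygotes and 12.89, 13.10 and 13.31 in homozygotes. The genotypes overlapped, with a difference of 0.24 (95% interval -0.15 to 0.62). VhaAC39-2 had means under the limit, and 1 value of 3.11 in homozygous replicate 1.

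Subunit e had 3 copies above the limit. VhaM9.7-b, its widely expressed copy, read 12.75, 12.87 and 12.91 against 12.96, 13.09 and 13.22 without overlap (difference 0.25, limma adjusted p = 0.611). VhaM9.7-a went the other way without overlap, at 7.73, 7.99 and 8.12 against 7.71, 7.56 and 7.34 (difference -0.41, limma adjusted p = 0.611). The groups of this gene came within 0.02 of each other at replicate 1. VhaM9.7-c read 10.37, 10.12 and 9.86 against 11.20, 10.18 and 10.23, with homozygous replicate 1 the highest array and the groups overlapping (difference 0.42). Without that array the difference was 0.09. VhaM9.7-d was under the limit throughout, at 2.12 to 2.14. No test compared the copies of subunit e with each other.

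The accessory genes were both above the limit. VhaAC45, the copy of the accessory protein that assists pump assembly, averaged 13.79 ± 0.09 in heterozygotes and 13.87 ± 0.20 in homozygotes (SD, n = 3 each). VhaAC45RP, named for its likeness to AC45, read 9.05, 8.76 and 8.81 in heterozygotes and 8.29, 8.23 and 7.92 in homozygotes. All 3 homozygous values were below all heterozygous ones, by a gap wider than the range within either group. The difference was 1.65-fold (log2 -0.73, SE 0.15; 95% interval 1.26 to 2.17-fold) and was not called (limma adjusted p = 0.279). It stayed between -0.80 and -0.61 over 15 other fits, with an adjusted p from 0.0877 to 0.724. The drop in taste neuron and support cell markers given above moved in the same direction, and its part in this difference was not tested.

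Groups that did not overlap were spread over both directions. Among the 20 genes above the limit, Vha44, Vha14-1 and VhaM9.7-b were higher in homozygotes without overlap (15%, against 12.6% of all probe sets above the limit). Vha100-5, VhaAC45RP and VhaM9.7-a were lower without overlap (15%, against 8.54%). The 3 higher genes were all widely expressed copies and the 3 lower genes all other copies, a split that was seen in the data and not tested. In the differences the widely expressed copies had a median of 0.12 and the other copies above the limit one of -0.20. Homozygous means were higher in 8 and lower in 4 of the widely expressed copies. They were higher in 4 and lower in 4 of the other copies above the limit. The classes were set with earlier results of these data known, so the split is no independent result.

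Most widely expressed copies were lowest in replicate 1 of each genotype. In homozygotes replicate 1 was the lowest array in 10 of 12 of them, with a median deviation from the genotype mean of -0.22 and the largest of -0.84 in Vha16-1. The exceptions were Vha44 and Vha14-1. In heterozygotes replicate 1 was lowest in 9 of 12, with a median deviation of -0.10. All 9 were also lowest in homozygous replicate 1 (75%, against 25.5% of all probe sets above the limit). Over all probe sets above the limit, replicate 1 was lowest in 39.4% in homozygotes and 42.2% in heterozygotes. It was also the highest array in 4552 of these 9381 probe sets in homozygotes and in 3837 in heterozygotes. Replicate 1 was thus often the extreme array, in either direction, and not in V-ATPase genes alone. Of the 12 widely expressed copies it was highest in 0 in homozygotes and in 1 in heterozygotes. The labels say that each replicate was dissected and homogenized in several batches, and give no cause for the difference between replicates. This is a description of arrays, and no test was made of it.

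**Figure D4:**
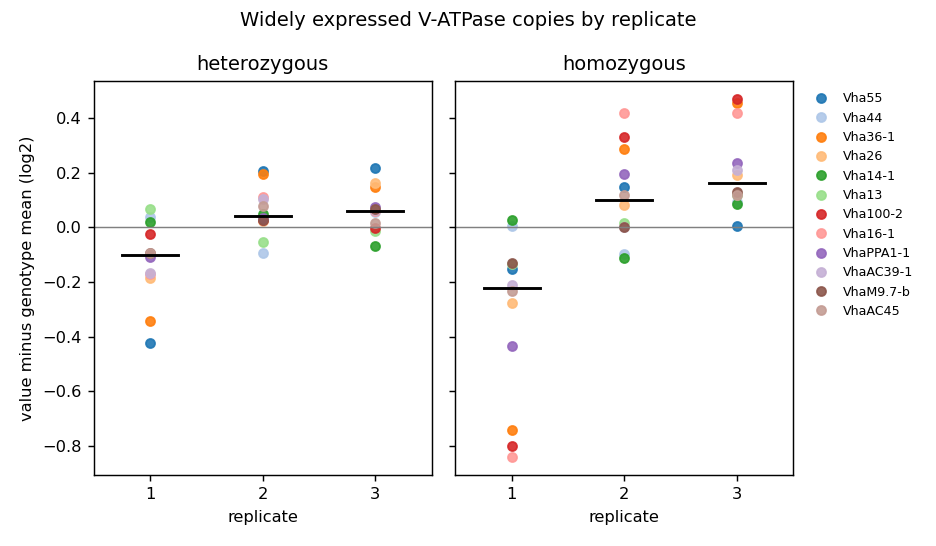
Each widely expressed V-ATPase copy (12 genes, coloured points) as its log2 value minus the mean of its genotype, by replicate, for heterozygotes (left) and homozygotes (right); black bars are medians over the 12 genes. Replicate 1 has the lowest median in each genotype, -0.10 and -0.22, and Vha36-1, Vha100-2 and Vha16-1 lie farthest down in homozygotes.

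The spread between homozygous arrays set the width of many intervals. The SD was larger in homozygotes in 18 of the 20 genes above the limit, beside 70.0% of all probe sets above it. Without both arrays numbered 1, none of the 30 genes was called (smallest adjusted p 0.172). At an unadjusted p under 0.05 there were then 2 lower genes of the 30 (beside 5.0% of all probe sets in that fit) and 5 higher ones (beside 11.3%). The 2 lower were VhaAC45RP (-0.71) and VhaM9.7-a (-0.61). The 5 higher were Vha44 (0.55), Vha100-1 (0.49), Vha36-1 (0.38), VhaPPA1-1 (0.29) and VhaM9.7-b (0.27).

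Genes that work with the pump gave no call either. Of 18 listed partners of the V-ATPase 12 had a matched probe set of their own and 11 were above the limit, and 0 were called in either direction by limma. At an unadjusted p under 0.05, 0 were lower and 1 was higher, beside 2.9% and 4.33% of all probe sets. The median difference over the 12 was 0.08. The 4 with the smallest p-values were Lamtor3, a Ragulator protein of the lysosome surface (0.49, adjusted p = 0.611), mtd, raptor, which was under the limit, and ATP6AP2, an accessory protein of the pump. ATP6AP2 averaged 13.04 ± 0.24 in heterozygotes and 13.41 ± 0.52 in homozygotes (SD, n = 3 each). Mitf, a transcription factor that drives V-ATPase genes, averaged 8.08 ± 0.48 and 7.74 ± 0.41. Replicate 1 was the lowest homozygous array in 2 of these 11 genes.

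In a list of ion transport and related genes, some of which work beside the pump in epithelia, there was no call. The list had 18 genes, of which 17 had a matched probe set and 16 exceeded the limit, and 0 were called by limma. At an unadjusted p under 0.05, 0 were lower and 1 was higher, beside 2.9% and 4.33% of all probe sets. The median difference over the 17 was -0.05. ClC-b, a chloride channel family member, stood at 10.20 ± 0.15 against 10.59 ± 0.09 (difference 0.39, adjusted p = 0.519). Its relative ClC-a stood at 10.41 ± 0.34 against 10.88 ± 0.11, and Nhe1, a sodium-proton exchanger, at 10.42 ± 0.28 against 10.69 ± 0.22 (SD, n = 3 each). Nhe2, also among the 4 smallest p-values, was under the limit. Replicate 1 was lowest in 10 of 16 genes in homozygotes and in 13 of 16 in heterozygotes. The cotransporter NKCC read 12.76, 13.41 and 13.42 in heterozygotes and 12.33, 13.44 and 13.66 in homozygotes. Nha1, a sodium-proton antiporter, read 11.32, 12.09 and 11.91 against 10.73, 11.96 and 12.35. Both were lowest in replicate 1 of each genotype, as was Vha16-1, and they were named here after their values were seen.

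The mitochondrial ATP synthase, a rotary enzyme of the same kind that runs in the direction of ATP synthesis, served as a second complex. It had 16 genes, 13 of them above the limit, with 0 calls by limma in either direction (0 lower and 3 higher at an unadjusted p under 0.05, beside 2.9% and 4.33% of all probe sets), and the median difference over the 16 was 0.20. In 5 of the 13 the groups did not overlap, each time with homozygotes higher (beside 12.6% of all probe sets above the limit). ATPsynB stood at 13.88 ± 0.22 against 14.33 ± 0.03, ATPsynepsilonL at 6.40 ± 0.36 against 7.54 ± 0.64 and ATPsynF at 13.20 ± 0.05 against 13.44 ± 0.06 (SD, n = 3 each). ATPsyndelta, also among the 4 smallest p-values, was at 12.07 ± 0.14 against 12.40 ± 0.18. The smallest adjusted p of this complex was 0.575. Replicate 1 was the lowest homozygous array in 6 of its 13 genes above the limit and the lowest heterozygous array in 7, beside 10 and 9 of the 12 widely expressed V-ATPase copies, and these shares were not compared by a test.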

How the data were processed

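The authors deposited 1 table of log2 values from 6 single-colour Affymetrix arrays, made with GCRMA per the submitters' processing notes; its version and a genome build are not given in the sources used here. The deposited values run from 1.57 to 16.02, which fits a log2 scale. About 50 ng of total RNA per sample was amplified in 2 rounds, per the labels' protocols, and such amplification can change relative levels. The number of arrays limits the precision.

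Of 18952 probe sets 183 controls were left out, and 18769 were tested with limma 3.58.1 in R 4.3.3 (lmFit, eBayes with an intensity trend, Benjamini-Hochberg adjustment, threshold 0.05). All 95% intervals come from that fit. Gene names came from the platform annotation and were matched through gene identifiers to a RefSeq gene table (Release 6 plus ISO1 MT), which held all 30 V-ATPase genes and gave chromosome arms and gene order. Every V-ATPase gene found by its symbol could be named. The 3 further lists and 10 marker lists were printed as counts, with the 4 smallest p-values of each of the 3. Some genes and markers of these lists are named beyond that. The genes, lists and classes of copies were chosen with earlier results of these data known.

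Replicates are numbered 1 to 3 in both genotypes, with no label that ties a number to a batch. Pairing was judged on deviations from the genotype means: their correlation was 0.372 for number 1, 0.288 for number 2 and 0.142 for number 3. Each exceeds 0.1, so same-numbered arrays are treated as pairs in the pair differences and in the fits with a replicate block. Homozygous replicate 3, however, correlated more with heterozygous replicate 2 (0.275). Homozygous replicate 2 with heterozygous replicate 3 also exceeded 0.1 (0.129). The rule therefore does not single out the same-numbered pairs 2 and 3. The limma fit described above compared the genotypes without a block, so its intervals and p-values do not use this pairing. Other fits changed the block, the normalization, the probe sets tested, the trend and the arrays used. No sequences were used here.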

Additional observations from a re-analysis of the deposited data

How the results depend on the processing

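None of the 30 V-ATPase genes was called lower or higher in any of the 15 other limma fits, and the smallest adjusted p of any of them was 0.0531 (Vha44, replicate number as a random block). Without the adjustment 2 were lower and 1 was higher. The fit with the replicate block called 0 lower and 0 higher. Over all probe sets the fit without a block called 59 lower and 11 higher, the replicate block called 0, and the random block called 167. The replicate block called 92 probe sets when the dimmer 50% was left out. The median difference over the members, 0.003, became 0.087 when the dimmer 50% of probe sets was dropped, which leaves 20 members. It was also 0.087 when the replicate block was added to that fit, a setting chosen after seeing the data. Leaving out 1 array in turn gave medians from 0.001 to 0.069, the highest without homozygous replicate 1. Limits of 4 and 5 left 18 members each above background, against 20. Vha44, VhaAC45RP, Vha100-5 and 9 further genes above the limit kept their direction in all 15 fits. The other 8, none of them called, changed sign in at least 1. Leaving out 1 array gave -0.24 to 0.08 for Vha55, -0.05 to 0.55 for Vha36-1, -0.95 to 0.31 for Vha36-3, -0.14 to 0.10 for Vha26, -0.28 to 0.55 for Vha100-1, -0.63 to 0.01 for Vha100-2, -0.70 to 1.07 for Vha100-4 and -0.52 to 0.11 for Vha16-1. Without both arrays numbered 1, Vha36-3 was at 0.08, Vha26 at 0.01 and Vha16-1 at 0.02, and quantile normalization put Vha100-1 at -0.05. The cause of these sign changes was not tested.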
